A study of Bos taurus with 14 samples.

Results

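The genes described here bring glucose into the mammary secretory cell and turn it into lactose: SLC2A1, HK1, GPI, PGM1, UGP2 and B4GALT1. The members were all probe sets whose single annotated gene symbol is one of these 6, which gave 8 of the 24016 tested probe sets and 6 of the 9155 named genes. The rule that picks these probe sets reads the annotation only. PGM1 had 2 probe sets, here called PGM1 probe set 2 and PGM1 probe set 3 after the second number in their names, and B4GALT1 had 2, called S1 and S2 after the ending of theirs. The other 4 genes had 1 each. Expression was measured on Affymetrix bovine arrays in mammary biopsies of Holstein cows that were not being milked and were near calving. Every cow was dried off about 60 d before its predicted calving. Cows were then assigned at random to long days (LD), with 16 h light and 8 h dark, or to short days (SD), with light for 8 h and darkness for 16 h. There were 3 arrays of LD and 3 of SD at day -24 relative to calving, and 4 of each at day -9. The labels do not say whether arrays came from separate cows or whether the same cows gave both biopsies, so p-values measure the spread between these arrays only. A biopsy holds several cell types, and in such bulk tissue fewer cells of a type and less RNA per cell cannot be told apart.

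Lactose is made in the Golgi of the secretory epithelial cell and draws water into milk, so its synthesis sets milk volume. Glucose enters through the transporter encoded by SLC2A1 (GLUT1), and HK1, a hexokinase, traps it as glucose 6-phosphate. From there GPI leads to fructose 6-phosphate and glycolysis, whereas PGM1 leads to glucose 1-phosphate, from which UGP2 makes UDP-glucose. UDP-glucose is converted to UDP-galactose and carried into the Golgi, where B4GALT1, a galactosyltransferase, joins galactose to glucose when it is bound by alpha-lactalbumin, the product of LALBA. Apart from this role, B4GALT1 galactosylates glycoproteins in most cell types.

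The values were log2 signals, 1 per probe set and array. Array medians lay between 6.43 and 6.61, and arrays correlated with each other at 0.950 to 0.992 across probe sets. Luminal epithelial genes, markers of the labelled tissue, differed in mean signal. KRT19, ELF5, CDH1, EPCAM, KRT7 and CLDN4 lay at the 99.7, 99.6, 99.0, 96.7, 94.6 and 94.3 percentile. MUC1, KRT8, KRT18 and CLDN3 lay at the 87.2, 76.3, 75.4 and 74.3 percentile, and EHF at the 34.0 percentile. Erythrocyte markers were dim, with 6 of 6 at or below the 33.4 percentile. LD day -24 replicate 1 lay farthest out on the first principal component (62.6, with the others between -44.5 and 32.0), and SD day -9 replicate 1 on the third (53.9, with the others between -19.5 and 17.9). SD day -24 replicate 3 and LD day -9 replicate 4 were lower by at least 0.7 than each other array in 280 probe sets, of which 0 were members.

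No member changed between long and short days by the test used, and averaged over days the intervals left room for less than a 1.5-fold difference. In SD minus LD, 5 of 8 probe sets were above 0 at day -24 (52.7% of all probe sets were), 2 of 8 at day -9 (50.2% of all) and 2 of 8 averaged over days (52.2% of all). The average count rests on single arrays, since it was 7 of 8 without SD day -24 replicate 2 and 6 of 8 without LD day -24 replicate 2. At day -24 it ran from 3 of 8, when replicate 3 of either photoperiod at that day was left out, to 7 of 8, when replicate 2 of either was. Of the 8 probe sets, 0 passed an adjusted p of 0.05 by limma in SD against LD at day -24, at day -9 or averaged over days, where the share over all 24016 probe sets was 0% in each. By unadjusted limma p, 0 of 8 were under 0.05 at day -24, at day -9 and in the average, beside 2.42%, 2.77% and 1.94% of all probe sets. Averaged over days, the differences lay between -0.05 and 0.09, with a median of -0.02 beside 0.01 over all probe sets. All 8 intervals (95%) of this average stayed within 1.5-fold in both directions, as did 84.6% of all probe sets (97.1% within 2-fold). At day -24 and at day -9 all 8 stayed within 2-fold (87.2% and 90.7% of all).

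**Figure D1:**
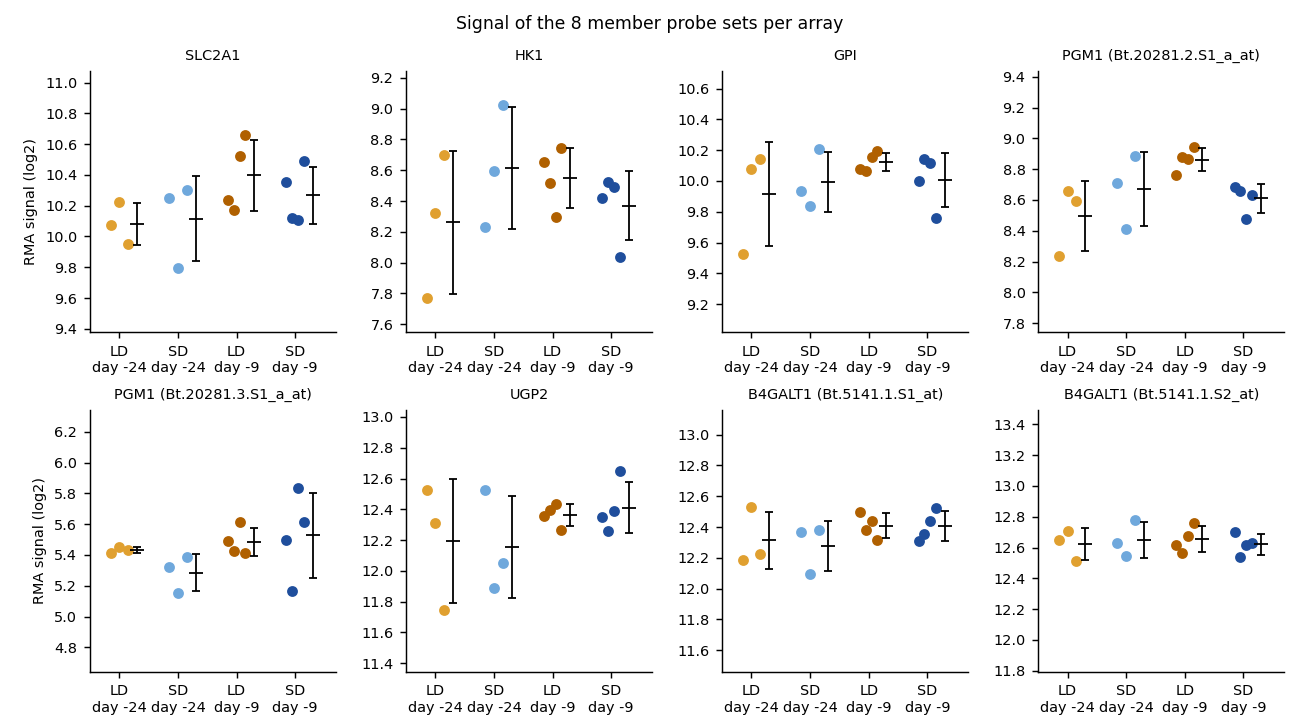
Log2 signal (y axis, each panel spanning 1.7 units) of the 8 probe sets in the 4 groups (x axis). Points are arrays, and the bar beside them is the mean with its standard deviation. The 4 LD arrays of PGM1 probe set 2 at day -9 sit at 8.76 or above, over the LD arrays of day -24 and the SD arrays of day -9, while the groups of B4GALT1 overlap.

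Glucose entry was read from 1 probe set of SLC2A1. Its signal was 10.07, 10.22 and 9.95 in LD at day -24 and 10.25, 9.80 and 10.30 in SD at day -24. At day -9 it was 10.24, 10.17, 10.52 and 10.66 in LD and 10.35, 10.12, 10.11 and 10.49 in SD. The day -9 arrays lay higher in part, but in both photoperiods the days overlapped, and at each day the photoperiods overlapped. The order of group means was LD day -9 (10.40 ± 0.23, standard deviation, n = 4), SD day -9 (10.27 ± 0.19, standard deviation, n = 4), SD day -24 (10.11 ± 0.28, standard deviation, n = 3) and LD day -24 (10.08 ± 0.14, standard deviation, n = 3), and no neighbours in it differed beyond their spread. Averaged over photoperiods, day -9 was above day -24 by 0.23 (95% interval -0.02 to 0.48), a 1.18-fold difference that did not pass the threshold (limma adjusted p = 0.654). Among the members this was the largest average difference between days. At day -24 SD minus LD was 0.03 (-0.35 to 0.41), and at day -9 it was -0.13 (-0.46 to 0.20). The first of these was -0.06 without SD day -24 replicate 3.

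HK1, the hexokinase that commits glucose to the cell, varied most among the members. Its signal was 7.77, 8.32 and 8.70 in LD and 8.23, 8.60 and 9.02 in SD at day -24, and between 8.29 and 8.74 in LD and between 8.04 and 8.53 in SD at day -9. The lowest array, LD day -24 replicate 1, and the highest, SD day -24 replicate 3, were 1.25 apart, a 2.38-fold range within 1 day. The within-group standard deviation of 0.32 was at the 70.1 percentile of all probe sets. At day -24 SD minus LD was 0.35 (-0.17 to 0.88), and at day -9 it was -0.18 (-0.64 to 0.27), and the interaction, the day -9 difference minus the day -24 difference, was -0.54 (-1.23 to 0.16, limma adjusted p = 0.900). The day -24 difference fell to 0.11 without LD day -24 replicate 1, and was 0.57 without LD day -24 replicate 3. Its interaction interval was the only one of the members to reach past 2-fold (7 of 8 within it, beside 69.5% of all probe sets).

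GPI, which exchanges glucose 6-phosphate and fructose 6-phosphate, had group means between 9.92 and 10.12. Its signal was 9.53, 10.08 and 10.14 in LD and 9.93, 9.83 and 10.21 in SD at day -24. At day -9 the LD arrays were at 10.08, 10.07, 10.15 and 10.19, and the SD arrays between 9.76 and 10.14. LD day -24 replicate 1 was the lowest array, followed by SD day -9 replicate 4 and SD day -24 replicate 2, and the LD arrays of day -9 lay closest together. Between the days and between the photoperiods the groups overlapped. At day -24 SD minus LD was 0.08 (-0.29 to 0.44), and at day -9 it was -0.12 (-0.43 to 0.20). In LD day -9 minus day -24 was 0.21 (-0.13 to 0.55) with all arrays and 0.01 without LD day -24 replicate 1.

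PGM1, which makes glucose 1-phosphate for UDP-glucose, gave the only member groups that stood apart in the day -9 comparison. PGM1 probe set 2 was at 8.24, 8.66 and 8.59 in LD at day -24 and at 8.76, 8.88, 8.86 and 8.94 in LD at day -9. In SD it was at 8.71, 8.41 and 8.89 at day -24 and at 8.68, 8.66, 8.47 and 8.63 at day -9. Every LD array of day -9 was above every LD array of day -24, and above every SD array of day -9. SD overlapped between the days. In LD the day difference was 0.37 (SE 0.14, 95% interval 0.07 to 0.66), a 1.29-fold level at day -9 (limma adjusted p = 0.651). At day -9 SD minus LD was -0.25 (-0.52 to 0.02, limma adjusted p = 0.984), and the interaction was -0.43 (-0.84 to -0.01, limma adjusted p = 0.900). The exact two-sided permutation p was 0.0286 for the LD day difference and for the day -9 difference, the smallest that their 35 and 70 arrangements allow, and 0.0443 for the interaction, where it is exact only if photoperiod had no effect at either day. After adjustment over the 56 exact tests of members these were 0.801, 0.801 and 0.827. Macrophage markers (7 of 8 measured) also differed at day -9. Their level was taken as the mean over markers of the log2 difference from the mean of all arrays. It was 0.05 to 0.72 in LD and -0.55 to 0.04 in SD. Neutrophil markers (4 of 6 measured) lay between -0.39 and 1.01 in LD and between -0.98 and 0.70 in SD. Within groups PGM1 probe set 2 correlated with the macrophage level at -0.22 and with the neutrophil level at 0.12 (r, n = 14). Larger in size were its r with the luminal (0.56), B and plasma cell (-0.48) and myoepithelial (0.41) levels. The part of these cells in the result was not tested.

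These separations of PGM1 stand beside what all probe sets did. In LD between the days, 4.32% of all probe sets had day -9 wholly above day -24, and 1 of 8 member probe sets did. At day -9, 1.12% of all had SD wholly below LD, and 1 of 8 members did. In the other direction the shares were 4.66% and 1.34%, with 0 of 8 members. Between the days in SD no member was wholly above or below (2.96% and 2.94% of all). The LD day difference was 0.24 without LD day -24 replicate 1, and the interaction was -0.30 without it and -0.29 without both SD day -24 replicate 3 and LD day -9 replicate 4. PGM1 probe set 3 did not follow PGM1 probe set 2. It was dim, between the 32.5 and 40.5 percentile of its array. Its 3 SD arrays at day -24, at 5.32, 5.15 and 5.39, were below the 3 LD arrays, at 5.41, 5.45 and 5.43 (1 of 8 members, beside 3.02% of all probe sets, and 0 of 8 beside 2.64% the other way). Its difference there was -0.15 (-0.47 to 0.18), opposite in sign to that of probe set 2 at 0.17 (-0.14 to 0.49). In LD between the days it differed by 0.05 (-0.25 to 0.36), and within groups both probe sets correlated at 0.00 (r, n = 14). The suffix of both names marks probe sets that read several transcripts of 1 gene, and which transcripts each reads was not tested.

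UGP2, which makes UDP-glucose on the route to lactose, was among the brightest 1% of probe sets in every array. Its signal was 12.52, 12.31 and 11.75 in LD and 12.53, 11.89 and 12.05 in SD at day -24. At day -9 it was 12.36, 12.40, 12.43 and 12.27 in LD and 12.35, 12.26, 12.39 and 12.65 in SD. At day -24 each photoperiod held 1 array above 12.5 and 1 below 11.9, whereas the 8 arrays of day -9 lay within 0.39 of each other, between 12.26 and 12.65. The standard deviations were 0.40 in LD and 0.33 in SD at day -24 (n = 3 each) and 0.07 in LD and 0.17 in SD at day -9 (n = 4 each). This difference in spread was not tested. The means were higher at day -9 by 0.17 (-0.23 to 0.58) in LD and by 0.26 (-0.15 to 0.66) in SD, values that did not pass the threshold (limma adjusted p = 0.775 and 0.970). At day -24 SD minus LD was -0.04 (-0.47 to 0.39), and at day -9 it was 0.05 (-0.33 to 0.42).

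B4GALT1, the catalytic component of lactose synthase, had the steadiest signal of the members. Its S2 probe set was at 12.65, 12.71 and 12.51 in LD and 12.63, 12.54 and 12.78 in SD at day -24. At day -9 it was at 12.62, 12.56, 12.68 and 12.76 in LD and 12.70, 12.54, 12.62 and 12.63 in SD. All 14 arrays lay within 0.27, a 1.20-fold range that was at the 0.783 percentile of all probe sets. The S1 probe set lay between 12.09 and 12.53, a 1.35-fold range, with group means of 12.31 (LD) and 12.28 (SD) at day -24 and of 12.41 in both photoperiods at day -9. SD minus LD averaged over days was -0.00 (-0.16 to 0.15) for S2 and -0.02 (-0.20 to 0.16) for S1. Day -9 minus day -24 averaged over photoperiods was 0.00 (-0.16 to 0.16) for S2 and 0.11 (-0.07 to 0.29) for S1, and the last interval, the farthest of the 4 from 0, reached 1.23-fold. Both probe sets were above the 99.3 percentile of signal in each array. Whether signal this bright is compressed on these arrays was not tested.

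LALBA, the partner that turns B4GALT1 into lactose synthase, varied far more over arrays. It was at 13.17, 12.30 and 11.71 in LD and 12.98, 11.81 and 12.22 in SD at day -24, and between 12.71 and 13.13 in LD and between 12.50 and 13.38 in SD at day -9. It was bright in every array, with a range of 1.67 and a within-group standard deviation of 0.48, at the 89.1 percentile of all probe sets. Day -9 was above day -24 by 0.59 averaged over photoperiods (0.09 to 1.10), which did not pass the threshold (limma adjusted p = 0.636). SD minus LD of LALBA was -0.01 (-0.51 to 0.49) averaged over days.

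**Figure D2:**
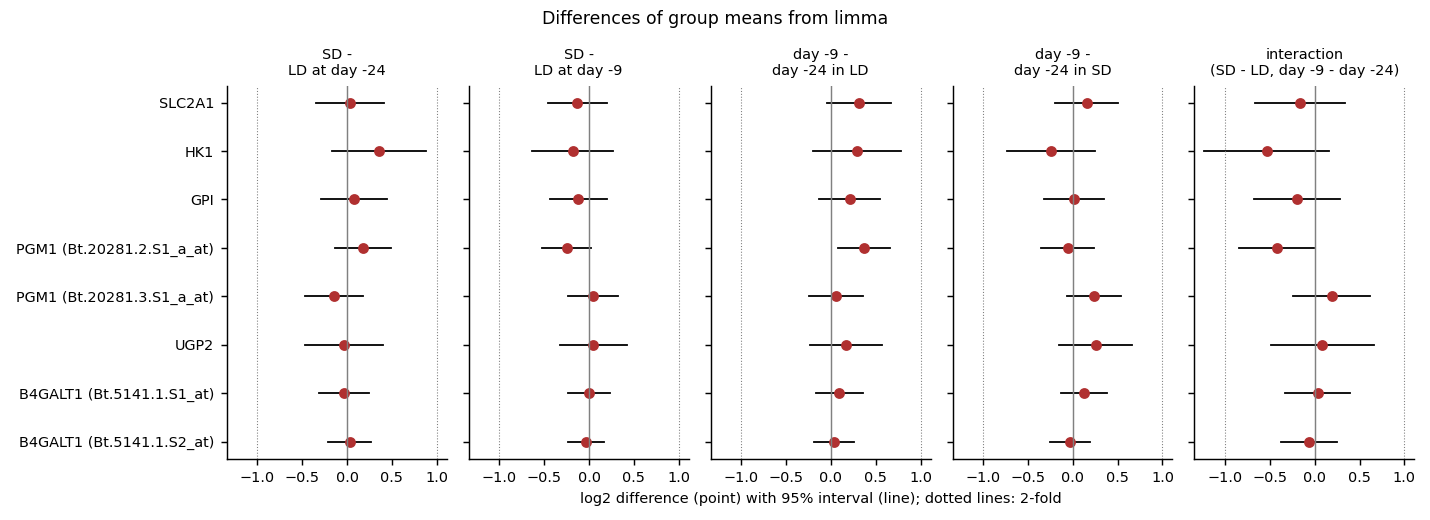
Log2 differences of group means (x axis) for the 8 probe sets (y axis) in 5 comparisons. Points are limma estimates, lines are 95% intervals and dotted lines mark 2-fold. Only PGM1 probe set 2 has intervals that leave out 0, in LD between the days and in the interaction, and the B4GALT1 S2 probe set has the narrowest.

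The comparison of day -9 with day -24 asks what changed in these genes as calving approached. In LD all 8 member probe sets were above 0 (50.5% of all probe sets were), with a median of 0.19 beside 0.00 over all, but with each array centred on its median only 6 of 8 were. None of the 8 passed an adjusted p of 0.05 by limma (0% of all probe sets did), and 1 of 8 had an unadjusted limma p under 0.05 beside 7.47% of all. In SD 5 of 8 were above 0 (46.7% of all), with a median of 0.07 beside -0.01, and 0 of 8 had an unadjusted limma p under 0.05 beside 4.56% of all. All 8 intervals stayed within 2-fold in LD and in SD, beside 87.2% and 87.7% of all. In both photoperiods 5 of 8 were above 0, namely SLC2A1 (0.32 in LD and 0.15 in SD), UGP2 (0.17 and 0.26), B4GALT1 S1 (0.10 and 0.13), PGM1 probe set 3 (0.05 and 0.24) and GPI (0.21 and 0.01). Without 1 array the count above 0 ran from 6, without LD day -24 replicate 3, to 8 in LD, and in SD from 3, without SD day -24 replicate 2, to 7, without SD day -24 replicate 3. HK1 was at 0.29 in LD and -0.25 in SD. Averaged over photoperiods, 8 of 8 were above 0 (50.2% of all), with a median of 0.13 beside 0.00, but 6 of 8 after array centring and 6 of 8 after a further quantile normalization. Of these 8, 0 had an unadjusted limma p under 0.05 beside 7.72% of all, and all 8 intervals stayed within 1.5-fold (79.1% of all, and 95.9% within 2-fold). The LD and SD day contrasts share no arrays. The median in LD fell to 0.04 without LD day -24 replicate 1, and that in SD to -0.04 without SD day -24 replicate 2.

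Other values of these arrays moved with the day contrast. Luminal markers (11 of 11 measured) had a level between -0.26 and -0.01 in LD and between -0.12 and -0.04 in SD at day -24. At day -9 it lay between -0.05 and 0.19 in LD and between -0.08 and 0.41 in SD. Myoepithelial markers (8 of 9 measured) lay between -0.56 and 0.03 over both photoperiods at day -24 and between -0.15 and 0.70 at day -9. Adipocyte markers (8 of 9 measured) lay between -0.41 and 0.08 at day -24 and between -0.27 and 0.44 at day -9. Among them ADIPOQ, LEP, PCK1, CIDEC, ADRB3 and RETN were dim, at or below the 28.3 percentile of mean signal. FABP4 and CIDEA were at the 98.9 and 72.1 percentile. With the luminal level as a covariate, the day difference of PGM1 probe set 2 in LD was 0.25 (limma unadjusted p = 0.099, adjusted p = 0.989). With it, 7 of 8 member probe sets were above 0 in LD, 4 of 8 in SD and 6 of 8 averaged over photoperiods. The signal of 3-prime minus 5-prime control probe sets, a sign of RNA quality, was averaged in each array over the control transcripts except ACTB. This mean lay between 0.90 and 1.33 over the arrays of day -24 and between 0.80 and 1.21 over those of day -9. For ACTB alone the signal lay between 0.18 and 0.80 at day -24 and between 0.04 and 1.02 at day -9. The part of RNA quality in the day contrast was not tested.

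Whether photoperiod altered the change towards calving was read from the interaction. Of the 8 probe sets 3 were above 0 (47.9% of all), with a median of -0.11 beside -0.02, and 0 passed an adjusted p of 0.05 by limma (0% of all). By unadjusted limma p, 1 of 8 was under 0.05, beside 4.15% of all. HK1 at -0.54 and PGM1 probe set 2 at -0.43 were the lowest, GPI was at -0.19 and SLC2A1 at -0.16. UGP2 was at 0.09 (-0.49 to 0.66), and B4GALT1 was at 0.03 (-0.33 to 0.40) in S1 and at -0.06 (-0.37 to 0.25) in S2. The median was 0.01 when SD day -24 replicate 3 and LD day -9 replicate 4 were both left out.

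**Figure D3:**
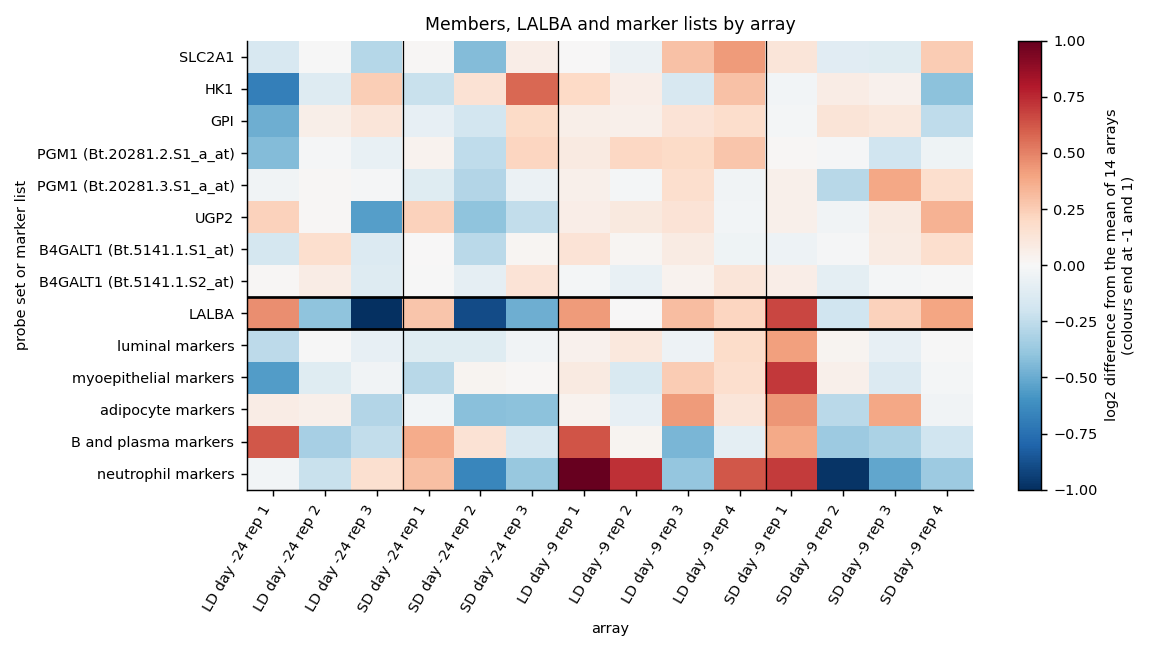
Log2 difference from the mean of the 14 arrays (colour, ends at -1 and 1) for the 8 member probe sets, LALBA and 5 marker lists (rows) in each array (columns, ordered by group). HK1, GPI and the first PGM1 row are lowest in LD day -24 replicate 1, and the LALBA row follows the UGP2 row at day -24.

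Single arrays were high or low for several members at once. HK1, GPI and PGM1 probe set 2 were each lowest in LD day -24 replicate 1, at 7.77, 9.53 and 8.24. In the same array UGP2, at 12.52, was among its 3 highest values. That array also had the lowest myoepithelial level (-0.56) and luminal level (-0.26) and a high B and plasma cell level (0.62, with 4 of 6 markers measured). At the other end, SD day -24 replicate 3 and LD day -9 replicate 4 were the 2 highest arrays for 4 of the 8 probe sets, namely HK1, GPI, PGM1 probe set 2 and B4GALT1 S2. Over all probe sets this pair was the highest in 10.8%, the most of the 91 possible pairs, and the next pair in 4.52%. Their 3-prime minus 5-prime means without ACTB, 1.33 and 1.21, were among the 3 highest of the 14. For ACTB alone their values were 0.43 and 0.37, and LD day -9 replicate 3 was highest at 1.02. The part of these array differences in the members' values was not tested.

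Some members ran in parallel over the arrays of a group, and others ran opposite to each other. After subtraction of the 4 group means, HK1 and UGP2 correlated at -0.84 (Pearson r, n = 14, exact permutation p = 0.0133 over 20736 arrangements within groups, two-sided; Spearman rho -0.80, exact permutation p = 0.00931). HK1 and GPI correlated at 0.83 (exact permutation p = 0.0128; rho 0.86, exact permutation p = 0.00203), and SLC2A1 and B4GALT1 S2 at 0.82 (exact permutation p = 0.00362; rho 0.77, exact permutation p = 0.00733). UGP2 and LALBA, a pair added after the values were seen, correlated at 0.84 (exact permutation p = 0.0183; rho 0.75, exact permutation p = 0.0225). These were the 4 largest of the 36 relations computed, and adjusted over all 36 none passed 0.05, with adjusted p = 0.160 for HK1 with UGP2 and with GPI, 0.130 for SLC2A1 with B4GALT1 and 0.165 for UGP2 with LALBA (from r, exact permutation), and between 0.0731 and 0.162 from rho.

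Without the 2 arrays farthest from the median of the first gene, r was -0.72 for HK1 with UGP2, 0.78 for HK1 with GPI, 0.75 for SLC2A1 with B4GALT1 and 0.73 for UGP2 with LALBA. By photoperiod, HK1 with UGP2 was at -0.90 in LD and -0.77 in SD (7 arrays each), and HK1 with GPI at 0.83 and 0.82. UGP2 with LALBA was at 0.96 within day -24 (6 arrays) and at 0.35 within day -9 (8 arrays), so the relation rested mainly on the day -24 arrays. SLC2A1 and HK1, consecutive steps of glucose uptake, correlated at -0.18, and the 2 B4GALT1 probe sets with each other at 0.36. All values of a relation come from the same normalized arrays, so a shift of an array as a whole enters both genes.

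**Figure D4:**
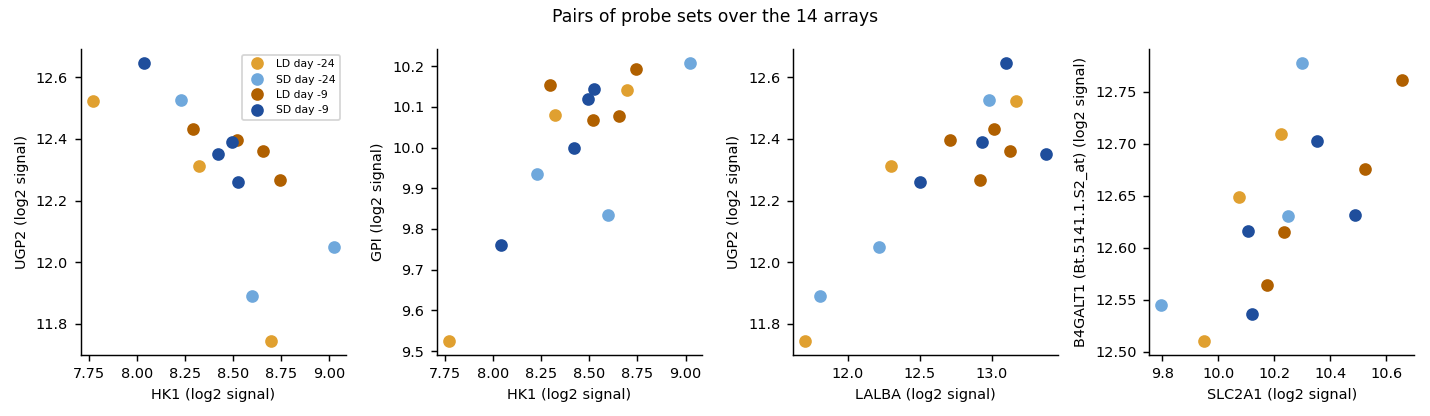
Log2 signal of 4 pairs of probe sets over the 14 arrays, with 1 point per array coloured by group. UGP2 falls with HK1 (within-group r of -0.84), GPI rises with HK1 (0.83), UGP2 rises with LALBA (0.84) and B4GALT1 S2 with SLC2A1 (0.82).

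The genes most like each member were read from the same within-group correlation, over 7554 named probe sets brighter than the median and 14 arrays. For SLC2A1 they were DPAGT1, which starts the N-glycan precursor (0.93), the glucosidase II subunit gene GANAB (0.93) and CIB1 (0.92). For HK1 they were the choline kinase gene CHKB (0.97), NME4 (0.97) and PLSCR3 (0.95). For GPI they were UBAC1 (0.96), the collagen galactosyltransferase gene COLGALT1 (0.95) and FAM89B (0.93). For PGM1 they were the sirtuin gene SIRT7 (0.94), the mitochondrial GTPase gene RHOT2 (0.93) and RAB25 (0.93). For UGP2 they were the retromer gene VPS35 (0.94), SHTN1 (0.94) and HNRNPLL (0.93). For B4GALT1 S2 they were BSPRY (0.89), the prosaposin gene PSAP (0.87) and CNDP2 (0.87). With so many candidates and 14 arrays, high values arise by selection, and they are given as a description.

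**Figure D5:**
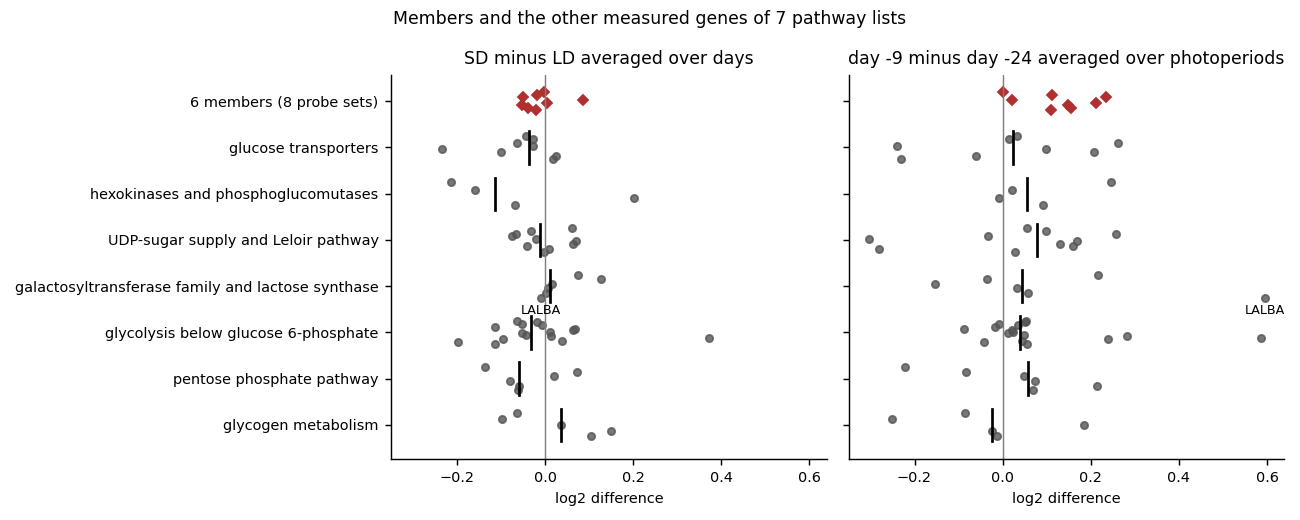
Log2 differences (x axis) averaged over days (left) or photoperiods (right) for the 8 member probe sets (diamonds) and the other measured genes of 7 pathway lists (points, 1 probe set per gene, with the median as a bar). Between photoperiods the members lie between -0.05 and 0.09 and PFKFB3 lies farthest out at 0.37. Between days LALBA and PFKFB3, both at 0.59, lie farthest out. The PFKFB3 differences include SD day -9 replicate 1 at 10.57, beside at most 8.57 in the other SD arrays of day -9.

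The rest of the pathway was described from 7 lists, each gene by its brightest probe set, without the members. No gene of the 7 lists passed an adjusted p of 0.05 in any of the 7 comparisons by limma. Over all probe sets, 52.2% were above 0 between photoperiods averaged over days, and 50.2% between days averaged over photoperiods. The list counts in these averages are to be read beside these shares. Of 8 other glucose transporter genes measured, 2 were above 0 in SD minus LD averaged over days, with a median of -0.04. The sodium-coupled transporter SLC5A1 differed by -0.03 (-0.31 to 0.25) between photoperiods and by 0.01 (-0.27 to 0.30) between days, though its dimmer probe set was at 0.58. Between days SLC2A6 differed by -0.24 (-0.43 to -0.05, limma adjusted p = 0.636), and the intracellular glucose transporter SLC2A8 by 0.26 (-0.18 to 0.70). The insulin-responsive transporter SLC2A4 was dim, with a mean signal of 4.88, and differed by 0.21 (-0.16 to 0.57).

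Among 4 other genes of hexokinases and phosphoglucomutases, 3 were above 0 between days (median 0.06). PGM3, of UDP-GlcNAc synthesis, differed by 0.25 (-0.08 to 0.58) between days and by -0.21 (-0.54 to 0.12) between photoperiods. The putative hexokinase HKDC1 differed by 0.20 (-0.02 to 0.43) between photoperiods. HK2 and PGM2 were not analysed here. Of 10 genes of UDP-sugar supply and the Leloir pathway, 7 were above 0 between days (median 0.08). The Golgi carrier of UDP-galactose, SLC35A2, differed by 0.26 (-0.03 to 0.54) between days, with 0.15 in its other probe set, and by -0.07 (-0.35 to 0.22) between photoperiods. UXS1, which makes UDP-xylose, differed by -0.30 (-0.53 to -0.08, limma adjusted p = 0.636) between days, and the galactokinase GALK1 by -0.28 (-0.68 to 0.12), with -0.04 in its other probe set. Of the 6 genes beside B4GALT1 in its list, 4 were above 0 between days and 5 between photoperiods. Between days LALBA had the largest difference in it, and the family members B4GALT4, B4GALT5 and B4GALT6 lay between -0.15 and 0.22 between days and between 0.02 and 0.13 between photoperiods.

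Most glycolysis genes below glucose 6-phosphate were above 0 in SD minus LD at day -24 and below 0 at day -9. Of the 16 genes of the list, 13 were above 0 at day -24 (52.7% of all probe sets), with a median of 0.13 beside 0.01 over all. This count was 6 of 16 (median -0.03) without SD day -24 replicate 3 and 10 of 16 (median 0.02) without LD day -24 replicate 1, leave-outs added after the values were seen. At day -9, 1 was above 0 (50.2% of all), with a median of -0.13 beside 0.00, and at most 3 were without any 1 array (3 without SD day -9 replicate 4). In the interaction 2 were above 0 (47.9% of all), with a median of -0.22 beside -0.02, and leaving out in turn the 2 arrays named for day -24 gave medians of -0.08 and -0.13. PFKM, the muscle-type phosphofructokinase, differed by -0.87 (-1.64 to -0.10) there (limma adjusted p = 0.900). A like lean from day -24 to day -9 was seen in other lists. Above 0 in SD minus LD were 4 of 5 glycogen genes at day -24 and 1 at day -9. The pentose phosphate list had 4 and then 1 of 6, and the glucose transporters 5 and then 2 of 8. UDP-sugar genes had 5 and 3 of 10, hexokinases and phosphoglucomutases 2 and 1 of 4, and the galactosyltransferase list 3 and 3 of 6. PFKFB3, which makes the activator of phosphofructokinase, differed by 0.59 (-0.25 to 1.42) between days and by 0.37 (-0.46 to 1.20) between photoperiods, with the opposite sign between days in 1 of its 2 other probe sets. These PFKFB3 values lean on 1 array. In SD at day -9 the signal was 10.57 in replicate 1 and between 7.85 and 8.57 in the others, beside 7.71 to 9.01 in LD. PFKFB2, of the same family, differed by 0.24 (-0.00 to 0.48) between days, with 0.05 and 0.08 in its other probe sets. Of 6 pentose phosphate genes 4 were above 0 between days (median 0.06), with PGD at 0.22 (-0.07 to 0.50) and RPE at -0.22 (-0.46 to 0.02), whose 3 other probe sets were at 0.16, -0.08 and -0.01. Of 5 glycogen genes 1 was above 0 between days (median -0.02), among them the liver-type phosphorylase PYGL at -0.25 (-0.54 to 0.04).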

How the data were processed

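The authors deposited robust multi-array average (RMA) values on a log2 scale, per the submitters' processing notes and the range of the values. The software, its version and the probe-level steps are not given in the sources used here. Each sample gave 2 µg of total RNA with an integrity number over 7.0, per the labels' protocols. Of 24128 probe sets, 112 controls were left out. Of the 24016 tested, 13292 carry 1 gene symbol, 86 several and 10638 none, and none with several names a member. No pair of arrays held identical values. Precision is limited by how many arrays there are.

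In R 4.3.3, limma 3.58.1 fitted the 4 group means over all 14 arrays, with no intensity trend. Tests were two-sided, with Benjamini-Hochberg adjustment across all 24016 p-values of a comparison, and intervals are 95% and not adjusted. Exact permutation of arrays was run beside it for members. The procedure was tested on simulated data of the same layout. The members and lists were chosen with earlier results of these data known. All member probe sets are described. From each pathway list, up to 3 genes of smallest p in each average were taken, plus LALBA, SLC35A2 and SLC5A1, and up to 3 most alike genes per member. Percentiles of signal are ranks within an array. The annotation gave gene names only, and no genome positions or sequences were used here. Alternatives were a filter at a mean log2 of 5, other variance priors, array weights, other scalings, fits to the compared groups, marker covariates, a replicate block and left-out arrays.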

Additional observations from a re-analysis of the deposited data

How the results depend on the processing

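Each of the 56 member differences was computed under 11 other settings, which gave 592 values, since the fit restricted to the compared groups is the same as the first one where all 4 groups enter. Of these, 0 passed the threshold and 38 turned sign, all with a size of at most 0.20. The smallest adjusted p of a member under any setting was 0.448 by limma. The cause of the turned signs was not tested. After a further quantile normalization the sign turned for B4GALT1 S2 at 0.0030 in SD minus LD over days, for HK1 at -0.0067 and B4GALT1 S2 at -0.0083 in the average day difference, and for B4GALT1 S1 at -0.016 in the interaction. After centring each array on its median the sign turned for B4GALT1 S1 at 0.0058 in SD minus LD at day -9, for PGM1 probe set 3 at -0.0012 and B4GALT1 S2 at -0.024 in the LD day difference, for GPI at -0.020 in the SD day difference, and for HK1 at -0.023 and B4GALT1 S2 at -0.043 in the average day difference. With array weights the sign turned for GPI at -0.12 and UGP2 at 0.20 in SD minus LD at day -24, for HK1 at -0.051 in SD minus LD over days, for B4GALT1 S2 at -0.0074 in the average day difference, and for GPI at 0.073 and UGP2 at -0.20 in the interaction. With the replicate block the sign turned for B4GALT1 S2 at -0.019 in the average day difference. With the luminal covariate the sign turned for B4GALT1 S1 at 8.6e-05 in SD minus LD at day -9, for B4GALT1 S2 at -0.014 in the LD day difference, for GPI at -0.066 in the SD day difference, and for HK1 at -0.14 and B4GALT1 S2 at -0.044 in the average day difference. With the adipocyte covariate the sign turned for UGP2 at 0.069 in SD minus LD at day -24, for B4GALT1 S2 at 0.017 in SD minus LD over days, for PGM1 probe set 3 at -0.015 in the LD day difference, for B4GALT1 S2 at -0.050 in the average day difference, and for UGP2 at -0.025 in the interaction. Without both SD day -24 replicate 3 and LD day -9 replicate 4 the sign turned for GPI at -0.030, UGP2 at 0.015, SLC2A1 at -0.060 and B4GALT1 S2 at -0.035 in SD minus LD at day -24, for B4GALT1 S2 at 0.0033 in SD minus LD at day -9, for B4GALT1 S2 at -0.0048 in the LD day difference, for PGM1 probe set 2 at 0.051 and B4GALT1 S2 at 0.034 in the SD day difference, and for UGP2 at -8.0e-05, SLC2A1 at 0.016 and B4GALT1 S2 at 0.039 in the interaction. The median over members in the LD day difference moved to 0.070 with array weights, and in the interaction to 0.0079 without both arrays. In the SD day difference 1 probe set of all passed the threshold without both.

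Same-numbered arrays did not deviate together in all pairs: 9 of 19 correlated above 0.1, from -0.34 to 0.33, with a median of 0.10 beside -0.06 for other pairs. These pairs include LD with SD arrays, which cannot share a cow. Within LD, same-numbered arrays of day -24 and day -9 correlated at 0.33, 0.19 and -0.31. Within SD they correlated at 0.04, 0.22 and 0.25. Such values cannot tell whether the same cows gave both biopsies. As the labels do not say so either, the replicate numbers were not taken as pairs. With the replicate block the count of calls among members was 0 in every comparison, as it was under the other settings. This block joins same-numbered arrays of both photoperiods, so it cannot show what pairing by cow would give.

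In 14 refits without 1 array, 71 of 784 member differences turned sign and 0 passed the threshold. In SD minus LD at day -24 the range was -0.12 to 0.19 for GPI, -0.26 to 0.13 for UGP2, -0.060 to 0.19 for SLC2A1, -0.099 to 0.073 for B4GALT1 S1 and -0.035 to 0.081 for B4GALT1 S2. In SD minus LD at day -9 the range was -0.061 to 0.16 for PGM1 probe set 3, -0.031 to 0.098 for UGP2, -0.041 to 0.031 for B4GALT1 S1 and -0.063 to 0.0033 for B4GALT1 S2. In SD minus LD over days the range was -0.12 to 0.036 for GPI, -0.10 to 0.026 for PGM1 probe set 2, -0.10 to 0.0070 for PGM1 probe set 3, -0.11 to 0.087 for UGP2, -0.037 to 0.19 for HK1, -0.096 to 0.030 for SLC2A1, -0.050 to 0.036 for B4GALT1 S1 and -0.034 to 0.024 for B4GALT1 S2. In the LD day difference the range was -0.054 to 0.34 for UGP2 and -0.025 to 0.074 for B4GALT1 S2. In the SD day difference the range was -0.066 to 0.12 for GPI, -0.19 to 0.051 for PGM1 probe set 2, -0.0064 to 0.25 for SLC2A1 and -0.083 to 0.034 for B4GALT1 S2. In the average day difference the range was -0.10 to 0.13 for HK1 and -0.027 to 0.032 for B4GALT1 S2. In the interaction the range was -0.31 to 2.3e-04 for GPI, -0.080 to 0.31 for UGP2, -0.074 to 0.097 for B4GALT1 S1 and -0.11 to 0.0029 for B4GALT1 S2. The median over members ran from 0.044 to 0.26 in the LD day difference, lowest without LD day -24 replicate 1, and from -0.036 to 0.15 in the SD day difference, lowest without SD day -24 replicate 2. The count over all probe sets ran from 0 to 1 in the SD day difference, with 1 when SD day -24 replicate 3 was left out, and in SD minus LD over days, with 1 when SD day -9 replicate 3 was. With 3 or 4 arrays a group, real changes can be missed. The intervals are not adjusted, so they do not mark the smallest change that the adjusted test could call. The LD day difference of PGM1 probe set 2, at 0.37, had an interval that left out 0 and did not pass (limma adjusted p = 0.651).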
